A study of Mus musculus with 32 samples.

Results

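Alveolar macrophages of DBA2J and C57BL6J mice were compared by RNA-seq, and the differences were set beside those of the same strains in 3 other lung phagocytes. The comparison rests on 4 of the 16 RNA libraries of the study, 2 from DBA2J alveolar macrophages and 2 from C57BL6J alveolar macrophages, chosen by their labels. The study sorted alveolar (AM) and interstitial (IM) macrophages and the inflammatory (iMo) and patrolling (pMo) kinds of monocyte from digested lungs of both strains and made RNA-seq and ATAC-seq libraries, 32 in all. All groups were untreated inbred mice with no transgene named, and their age and sex are not given in the labels used here. Each strain and cell type has 2 RNA libraries, and its ATAC peaks are given as 1 list. The labels do not say whether the 2 libraries of a group stem from different animals; p-values cover the spread between libraries, which may be technical.

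Alveolar macrophages live on the air side of the lung, where they take up surfactant and inhaled particles, and they depend on GM-CSF and the nuclear receptor PPARγ for their identity. Interstitial macrophages and monocytes occupy the tissue and the vessels and carry a different receptor repertoire. DBA2J and C57BL6J are long-inbred strains that differ at many loci, among them the MHC, which is of the d haplotype in DBA2J and of the b haplotype in C57BL6J. The build named for the reads, mm10, is the C57BL6J genome, and the effect of DBA2J alleles on read mapping was not tested.

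Levels are given in rescaled TPM: the authors' TPM after the 2 ribosomal entries Rn45s and Mir6236 were taken out and each library was brought back to a common total of 1000000. Differences are log2(rescaled TPM + 1) in DBA2J minus C57BL6J, with limma's standard error (SE), and a gene was called, and is said to rise or fall in DBA2J, at a Benjamini-Hochberg adjusted p under 0.05 over 13873 tested genes. The ribosomal entries took 65.9% and 64.3% of the summed TPM in DBA2J AM, against 65.3% and 67.6% in C57BL6J AM. Without them the libraries held 15242793 and 15340109 reads in DBA2J AM, against 9972386 and 15886082 reads in C57BL6J AM, within a range of 5936067 to 15886082 over the 16 libraries. Several genes that mark alveolar macrophages were high in both strains, while Marco, described with the innate receptor genes, was lower in both DBA2J AM libraries and not called. The 27 tested markers had a median difference of -0.13, with 2 called lower and none higher. The integrin gene Itgax (CD11c) stood at 1051 and 1158 TPM in DBA2J AM, against 972 and 963 TPM in C57BL6J AM. Krt79, a keratin gene that marks these cells, stood at 646 and 465 TPM in DBA2J AM, against 528 and 558 TPM in C57BL6J AM. The nuclear receptor gene Pparg stood at 43.1 and 70.9 TPM in DBA2J AM, against 61.8 and 45.8 TPM in C57BL6J AM. Its pMo means were 49.4 TPM in DBA2J and 53.6 TPM in C57BL6J, so its level did not set AM apart from pMo. The lectin gene Siglecf, whose product was a sort marker, stood at 402 and 438 TPM in DBA2J AM, against 865 and 878 TPM in C57BL6J AM; it was not called (log2 difference -1.05 ± 0.53, adjusted p = 0.39).

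Summed markers of other cell types differed between the AM libraries of the strains. The 9 listed endothelial markers summed to 227 and 449 TPM in DBA2J AM, against 81.8 and 108 TPM in C57BL6J AM. Their list median was 2.17, beside 0.08 over all tested genes, and 1 of them, Pecam1, was called (2.16 ± 0.37, adjusted p = 0.0058). The 7 erythroid markers summed to 538 and 288 TPM in DBA2J AM, against 18.1 and 105 TPM in C57BL6J AM, with a list median of 3.1 and none called. The 13 measured T and NK cell markers summed to 30.8 and 50.0 TPM in DBA2J AM, against 11.7 and 13.3 TPM in C57BL6J AM (list median 0.87). The 10 fibroblast markers summed to 39.8 and 38.2 TPM in DBA2J AM, against 18.7 and 19.2 TPM in C57BL6J AM (list median 1.32, none called). The B cell list had a median of 0.88, and its only call was Cd22, lower in DBA2J AM. In the other direction, the 15 epithelial markers summed to 32.1 and 36.6 TPM in DBA2J AM, against 105 and 104 TPM in C57BL6J AM. Epcam and Cdh1 carried most of that gap, and Cdh1 is on the alveolar macrophage list too; without both genes the sums were 24.4 and 24.3 TPM in DBA2J AM, against 38.3 and 45.3 TPM in C57BL6J AM. In these libraries a larger share of cells of a type and more RNA per cell cannot be told apart. Interstitial macrophage markers, described with the mediator genes, had a list median of 0.86. The complement gene C1qa, which interstitial macrophages carry at 1833 TPM in DBA2J and 3408 TPM in C57BL6J, was at most 5.08 TPM in any AM library and not called, and the neutrophil gene S100a8 lay between 20.3 and 40.9 TPM.

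In AM, 700 genes differed between the strains (5.05% of those tested), 454 higher in DBA2J (3.27%) and 246 lower (1.77%), and 581 of them by at least 2-fold. The same fit called 1677 genes in IM (12.1%; 3.96% higher and 8.12% lower in DBA2J), 453 in iMo (3.27%; 1.79% higher and 1.47% lower) and 678 in pMo (4.89%; 2.47% higher and 2.41% lower). Of the AM calls, 104 were called with the same sign in all 4 cell types, 63 higher and 41 lower in DBA2J. A further test asked, gene by gene, whether the strain difference in AM departed from the mean of the 3 other types. It called 509 genes (3.67%), 354 with a positive departure (2.55%) and 155 with a negative one (1.12%), and 239 of the 13873 genes (1.72%) passed both tests in 1 direction and were called in that direction in no other cell type. These 239 are referred to as alveolar-specific, 175 higher in DBA2J AM (1.26%) and 64 lower (0.461%). Of the 239, 51 were called with the opposite sign in at least 1 other type, 14 had no other group mean of 1 TPM or more, and for 174 no difference was called elsewhere, which does not show that none exists. Of the 14, 8 are microRNA entries, and the 11 microRNA entries among the 239 each had under 40 reads over the 4 AM libraries, so none is described further.

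The precision of these counts is limited by 2 libraries per group. The fit used 1 spread per gene for all groups, although replicates differed more in IM than in AM. The standard deviation of the log2 difference between replicates was 0.63 in C57BL6J AM and 0.72 in DBA2J AM. It was 1.07 in C57BL6J IM, 0.92 in DBA2J IM and 0.74 to 0.88 in the monocyte groups. Counts of calls are therefore not directly comparable between cell types. Leaving out 1 AM library brought the 700 calls to between 358 and 503 and the 239 alveolar-specific genes to between 125 and 206; the lowest values came without DBA2J AM replicate 2, and the calls were 364 and 387 without C57BL6J AM replicates 1 and 2. The median of all tested genes was 0.08 for the AM difference and 0.12 for the departure from the other types; with median-of-ratios factors the second became -0.02, a shift of over 0.1. The alveolar-specific genes then numbered 269, of which 169 were higher, and with quantile normalization 247, of which 147 were higher. The departure test gave 308 higher of 528 with quantile normalization, beside 354 of 509. Of the AM calls, 450 of 791 were higher with median-of-ratios factors and 405 of 729 with quantile normalization, beside 454 of 700. The excess of genes higher in DBA2J AM was thus smaller with both scalings.

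**Figure D1:**
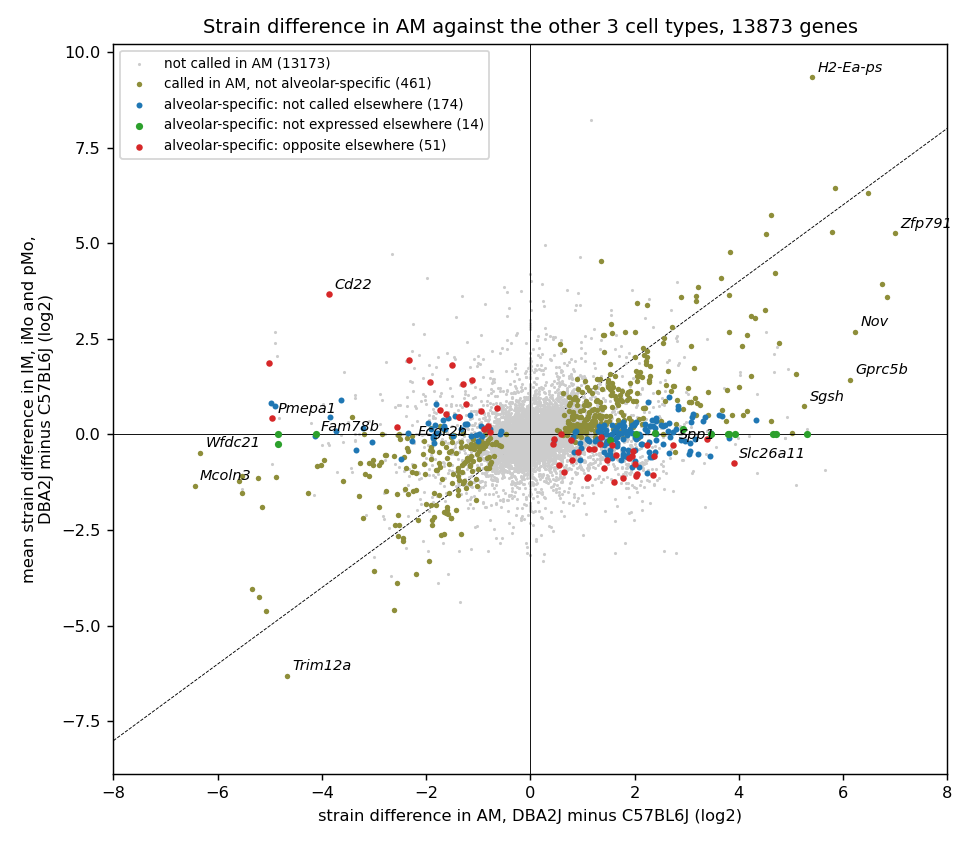
Each point is 1 of 13873 genes; the horizontal axis is the strain difference in AM and the vertical axis the mean strain difference in IM, iMo and pMo, both as log2 DBA2J minus C57BL6J, coloured by class, with the count of each class in the legend. Genes such as Sgsh, Fam78b and Spp1 lie far out along the horizontal axis near a vertical value of 0, and Cd22 lies in the quadrant of opposite signs. Zfp791, H2-Ea-ps and Trim12a have the same sign on both axes. They depart from the dashed line of equal differences by 1.74, -3.93 and 1.63.

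The secreted matricellular gene Nov (CCN3; chr15:54745928-54753761, plus strand, mm10 as the authors' table gives it), a member of the CCN family of matrix-associated signalling proteins, was among the largest differences. It stood at 249 and 234 TPM in DBA2J AM, against 1.76 and 2.75 TPM in C57BL6J AM, a difference of 6.24 ± 0.42 (adjusted p = 7.9e-06). The strains did not overlap, as in 33.7% of all tested genes in this direction (20.9% in the other), and Nov was near silent in both C57BL6J libraries. In IM it stood at 67.9 and 81.2 TPM in DBA2J, against 1.71 and 0 TPM in C57BL6J, and that difference was called too (5.51, adjusted p = 2.87e-05). Patrolling monocytes had 2.95 and 4.01 TPM in DBA2J, against 0 TPM in both C57BL6J libraries (adjusted p = 0.014), and inflammatory monocytes were at or under 0.707 TPM in every library. The DBA2J AM and IM peak lists each held 1 peak at the Nov start, and neither C57BL6J list held one.

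Mcoln3 (chr3:146121791-146140646, plus strand), which codes for the endolysosomal cation channel TRPML3, showed the reverse. It had 0.591 and 0.546 TPM in DBA2J AM, against 146 and 125 TPM in C57BL6J AM, a difference of -6.44 ± 0.35 (adjusted p = 1.85e-06). The small secreted protein gene Wfdc21, of the whey acidic protein family, had 0.177 and 0.403 TPM in DBA2J AM, against 101 and 105 TPM in C57BL6J AM (-6.34 ± 0.26, adjusted p = 6.71e-07). Both genes were near silent in DBA2J AM and uniform between the C57BL6J replicates. Both were also called lower in DBA2J IM, with differences of -4.13 for Mcoln3 and -3.13 for Wfdc21. In iMo and pMo of both strains Mcoln3 was at or under 0.981 TPM and not called, and Wfdc21 was called higher in DBA2J pMo, at 2.16 and 1.74 TPM, against 0.27 and 0.379 TPM in C57BL6J pMo. Around the Wfdc21 start the C57BL6J AM list held 3 peaks and the DBA2J AM list none; no AM peak of either strain lay at the Mcoln3 start.

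For these genes and others low in monocytes, the IM level was a fraction of the AM level of the same strain. In C57BL6J, IM held 20.2% of the AM level of Mcoln3, 12.1% of Wfdc21, 15.9% of Gal, 13.6% of Pnpla5, 14.5% of Clmn and 19.7% of Spint1. In DBA2J, IM held 30.9% of the AM level of Nov. The 27 listed alveolar macrophage markers had a median IM level of 11.6% of the AM level in DBA2J (range 2.89% to 78.3%) and 23.2% in C57BL6J (5.38% to 103%). The part of alveolar macrophage RNA in the IM differences was not tested.

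**Figure D2:**
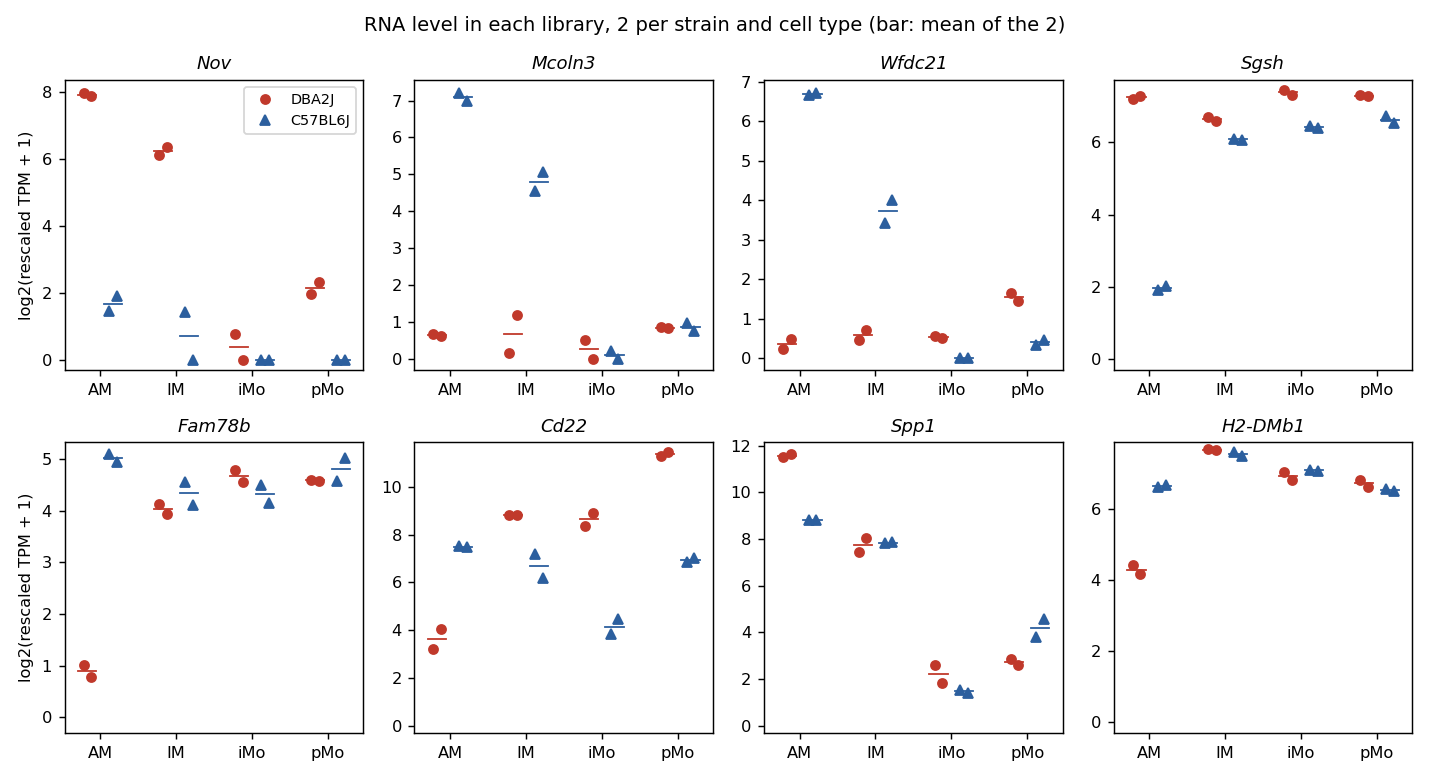
Each point is 1 library, with 2 per strain in AM, IM, iMo and pMo, DBA2J as red circles on the left of each pair and C57BL6J as blue triangles; the vertical axis is log2(rescaled TPM + 1) and short bars are means. Nov is high in DBA2J AM and IM, Mcoln3 and Wfdc21 in C57BL6J AM and less so in C57BL6J IM, whereas Sgsh is low only in C57BL6J AM, and Fam78b and H2-DMb1 are low only in DBA2J AM.

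A set of 3 neighbouring genes on chromosome 11 were high in DBA2J AM and near silent in C57BL6J AM, and were present in every other group. Sgsh (chr11:119343489-119355510, minus strand), which codes for the lysosomal enzyme sulfamidase that degrades heparan sulfate, had 146 and 153 TPM in DBA2J AM, against 2.80 and 3.09 TPM in C57BL6J AM (5.26 ± 0.11, adjusted p = 1.69e-09). C57BL6J cells of the other types had between 65.6 and 104 TPM, and DBA2J cells of those types between 95.3 and 174 TPM. Those differences were called as well but were small, 0.56 in IM, 0.97 in iMo and 0.67 in pMo, and the AM difference exceeded their mean by 4.52 ± 0.13 (adjusted p = 3.77e-08). Slc26a11, a sodium-independent sulfate transporter gene, had 20.4 and 20.8 TPM in DBA2J AM, against 0.422 and 0.461 TPM in C57BL6J AM. Its difference was 3.90 in AM and went the other way in IM (-0.78) and iMo (-0.81), both called. Card14, a scaffold gene of NF-κB signalling named here as a neighbour of Sgsh after its values were seen, had 18.4 and 21.1 TPM in DBA2J AM, against 0.500 and 0.353 TPM in C57BL6J AM (3.86). Card14 overlaps Sgsh on the opposite strand; the library method was strand-specific, but whether the counting used the strand is not stated, so the Card14 value is uncertain.

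Other large differences in favour of DBA2J AM covered several functions, with C57BL6J AM levels that ran from near silent to 27.9 TPM. The orphan receptor gene Gprc5b had 81.2 and 68.3 TPM in DBA2J AM, against 0.0673 and 0.0863 TPM in C57BL6J AM (6.13 ± 0.45), and was called in iMo as well (2.65). Plekha6, a junctional adaptor gene, had 193 and 187 TPM in DBA2J AM, against 5.51 and 4.27 TPM in C57BL6J AM (5.03 ± 0.24). It was called higher in DBA2J IM too (1.30), while in pMo it was lower in DBA2J (-0.95). It overlaps the predicted antisense gene Gm19461, which moved with it. Slc22a4, an ergothioneine and carnitine transporter gene, had 40.7 and 46.9 TPM in DBA2J AM, against 0.205 and 0.413 TPM in C57BL6J AM (5.10 ± 0.22), and was higher in DBA2J in all 4 types, by 1.02 to 1.85 in the other 3. The laminin-binding adhesion gene Bcam had 307 and 301 TPM in DBA2J AM, against 15.3 and 27.9 TPM in C57BL6J AM (3.81 ± 0.42), and was not called in any other type.

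Further genes were among the 10 largest alveolar-specific differences higher in DBA2J. The actin-related gene Actr3b rose by 4.33, Stum by 3.69, and Reep2, whose family shapes the endoplasmic reticulum, by 3.62. The kinase gene Matk had 53.5 and 39.5 TPM in DBA2J AM, against 4.05 and 2.58 TPM in C57BL6J AM (3.47). The aminopeptidase gene Anpep (CD13) had 38.5 and 32.7 TPM in DBA2J AM, against 2.84 and 2.15 TPM in C57BL6J AM (3.39), and in IM it was lower in DBA2J (-1.25). The elastase gene Mmp12, known from lung macrophages, had 23.6 and 34.99 TPM in DBA2J AM, against 3.04 and 1.12 TPM in C57BL6J AM (3.34), and was not called in IM, where the means were 109 TPM in DBA2J and 115 TPM in C57BL6J. Acer3, an alkaline ceramidase gene, had 15.2 and 24.4 TPM in DBA2J AM, against 1.18 and 0.930 TPM in C57BL6J AM (3.31), beside 56.6 to 104 TPM in the 6 other group means. Outside the 10 largest, Ahr, the gene of the aryl hydrocarbon receptor, whose alleles differ between these strains, had 6.42 and 10.1 TPM in DBA2J AM, against 0.744 and 0.953 TPM in C57BL6J AM (2.30).

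The alveolar-specific genes higher in DBA2J differed in where their level was highest. In DBA2J, AM had the highest mean of the 4 types for 70 of the 175 (40%), a share of 29.5% over all tested genes. For 31 of the 175 (17.7%) the AM mean was under 10% of the highest other mean, a share of 8.25% over all tested genes. Chosen after their values were seen, Aplnr, Cavin1, Cavin2, Eng, Icam2, S1pr1 and Heg1, which are known from endothelial cells, were among the 175. Cavin2 had 11.1 and 26.5 TPM in DBA2J AM, against 2.21 and 3.11 TPM in C57BL6J AM. Eng had 15.4 and 25.6 TPM in DBA2J AM, against 3.78 and 4.56 TPM in C57BL6J AM. The part of endothelial RNA in the 175 was not tested.

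**Figure D3:**
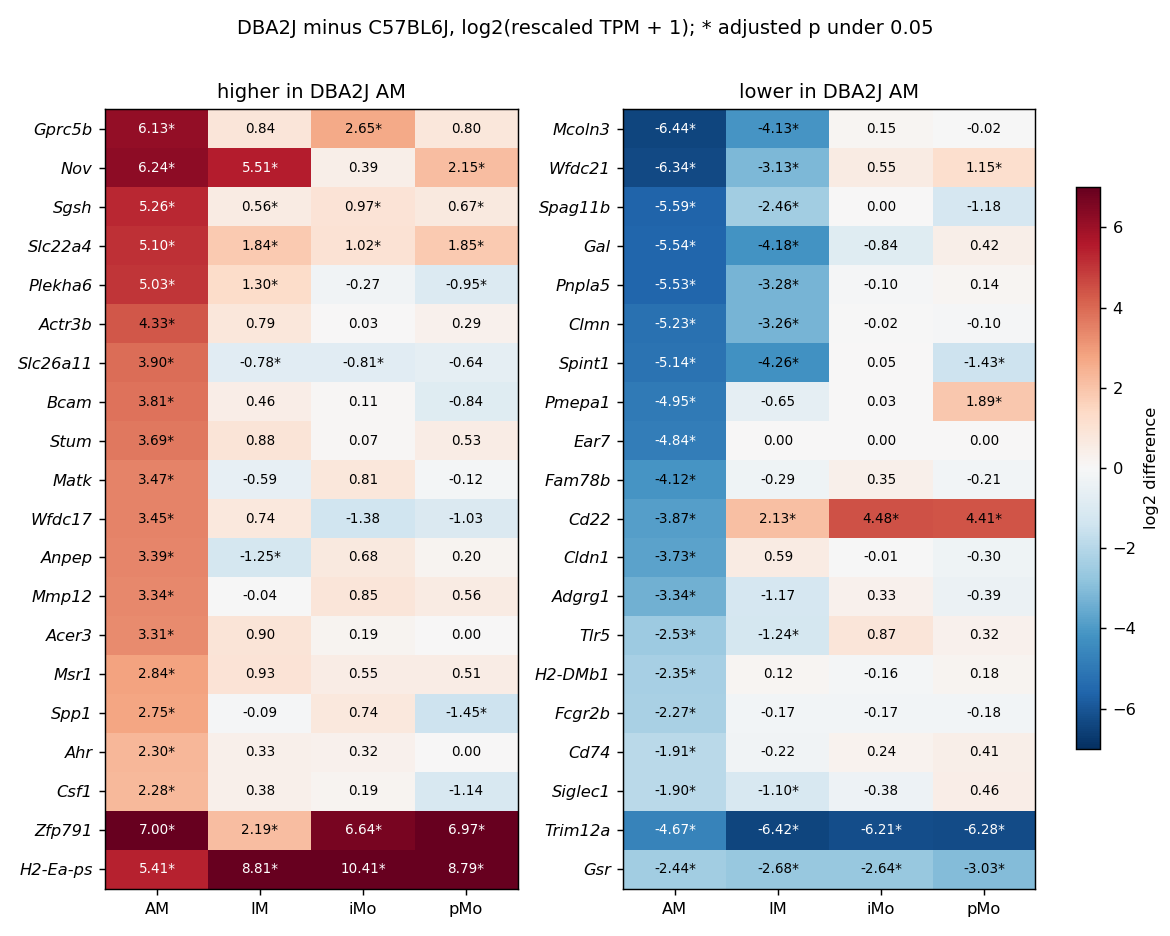
Each cell gives the strain difference, log2 DBA2J minus C57BL6J, of a named gene in AM, IM, iMo and pMo, with an asterisk for an adjusted p under 0.05; red is higher and blue lower in DBA2J. Genes such as Bcam, Stum, Fam78b and Fcgr2b are marked only in AM, Cd22 changes colour between AM and the other types, and Trim12a and Gsr are blue and marked in all 4.

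Among the genes lower in DBA2J AM, several code for secreted products. The galanin gene Gal, a neuropeptide precursor, had 1.75 and 1.48 TPM in DBA2J AM, against 123 and 118 TPM in C57BL6J AM (-5.54 ± 0.56). The defensin-like gene Spag11b had 0.451 and 0 TPM in DBA2J AM, against 41.5 and 77.9 TPM in C57BL6J AM (-5.59 ± 0.68). The ribonuclease genes Ear6 and Ear7 had no read in either DBA2J AM library, against 24 and 16 reads of Ear6 and 18 and 6 reads of Ear7 in C57BL6J AM. Each was called (fitted difference -4.84, which depends on the pseudocount and is no bound), but the entries overlap each other and belong to a family of near-identical copies, so they are uncertain. The protease inhibitor gene Spint1 had 2.33 and 2.45 TPM in DBA2J AM, against 129 and 109 TPM in C57BL6J AM (-5.14 ± 0.29). Gal (-4.2), Spag11b (-2.46), Spint1 (-4.26) and the epithelial marker gene Epcam (-2.68) were called lower in DBA2J IM too. Spint1 inhibits matriptase and is best known from epithelium, as are Epcam (-4.10), Cdh1 (-1.13) and the tight-junction gene Cldn1 (-3.73), all called lower in DBA2J AM. The surfactant gene Sftpc, an epithelial marker, had 2.58 and 1.10 TPM in DBA2J AM, against 6.35 and 16.2 TPM in C57BL6J AM and was not called (-2.04 ± 0.79, adjusted p = 0.22), and the part of epithelial RNA in these differences was not tested.

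Clmn, an actin-binding membrane protein gene, had 0.692 and 1.81 TPM in DBA2J AM, against 81.6 and 80.0 TPM in C57BL6J AM (-5.23 ± 0.30), and was lower in DBA2J IM too (-3.26). Pmepa1, a feedback inhibitor gene of TGF-β signalling, had 1.03 and 1.05 TPM in DBA2J AM, against 63.0 and 61.2 TPM in C57BL6J AM (-4.95 ± 0.29). In IM the levels were 53.8 and 73.7 TPM in DBA2J, against 80.1 and 124 TPM in C57BL6J, and in pMo Pmepa1 was higher in DBA2J (1.89, adjusted p = 0.0042). Fam78b, of unassigned function, had 1.02 and 0.725 TPM in DBA2J AM, against 33.4 and 29.9 TPM in C57BL6J AM (-4.12 ± 0.22). In every other library of either strain Fam78b lay between 14.4 and 31.5 TPM, so that only the 2 DBA2J AM libraries were low. Adgrg1, an adhesion receptor gene, had 0.746 and 1.77 TPM in DBA2J AM, against 21.8 and 20.8 TPM in C57BL6J AM (-3.34 ± 0.35). The class of the 10 largest alveolar-specific falls also held Hist1h4j and Amer2, which had 1 and 3 reads in DBA2J AM replicate 1 and 0 and 14 reads in replicate 2.

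Cd22, a sialic acid-binding inhibitory receptor gene best known from B cells, had opposite strain differences in AM and in the other types. It stood at 8.32 and 15.4 TPM in DBA2J AM, against 180 and 178 TPM in C57BL6J AM (-3.87 ± 0.35, adjusted p = 6.51e-05). In pMo it stood at 2458 and 2779 TPM in DBA2J, against 114 and 130 TPM in C57BL6J (4.41). In iMo it stood at 328 and 476 TPM in DBA2J, against 13.3 and 21.1 TPM in C57BL6J (4.48), and in IM the difference was 2.13. The AM difference minus the mean of the others was -7.54 ± 0.40 (adjusted p = 5.95e-06). The B cell gene Cd79a had 10.4 and 17.1 TPM in DBA2J AM, against 2.62 and 4.81 TPM in C57BL6J AM, the opposite direction to Cd22, and was not called (1.64 ± 0.51, adjusted p = 0.11).

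Innate receptor genes were called in both directions. Of 32 tested phagocytic and adhesion receptor genes, 3 rose and 5 fell in DBA2J AM, beside 3.27% higher and 1.77% lower over all tested genes, with a list median of 0.06 beside 0.08 over all genes. The inhibitory Fc receptor gene Fcgr2b had 25.5 and 21.3 TPM in DBA2J AM, against 113 and 120 TPM in C57BL6J AM (-2.27 ± 0.12, adjusted p = 1.66e-06). In the other types it differed by -0.17 to -0.18 and was not called. Siglec1, the sialoadhesin gene, had 296 and 280 TPM in DBA2J AM, against 1034 and 1124 TPM in C57BL6J AM (-1.90 ± 0.21), and was lower in DBA2J IM too (-1.10). Msr1, the gene of scavenger receptor A, went up instead, at 21.7 and 28.6 TPM in DBA2J AM, against 2.42 and 2.85 TPM in C57BL6J AM (2.84 ± 0.28). The scavenger receptor gene Marco had 14.5 and 7.998 TPM in DBA2J AM, against 115 and 138 TPM in C57BL6J AM; its libraries did not overlap, but with the spread shared over all groups it was not called (-3.43 ± 0.94, adjusted p = 0.069), and it was called with the 4 AM libraries alone. Of 29 pattern recognition receptor genes, with a list median of 0.29, 2 fell and none rose: the flagellin receptor gene Tlr5 (8.61 and 14.0 TPM in DBA2J AM, against 67.3 and 69.3 TPM in C57BL6J AM) and the inflammasome gene Nlrp1b. Tlr5 was lower in DBA2J IM too (-1.24). The complement receptor gene C5ar2 had 15.3 and 12.6 TPM in DBA2J AM, against 113 and 107 TPM in C57BL6J AM (-2.90 ± 0.45), and was lower in DBA2J pMo too (-1.8).

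Of 18 receptors for GM-CSF, M-CSF, TGF-β and related ligands, 3 fell and none rose, beside 1.77% lower and 3.27% higher over all tested genes, and the list median was -0.00. The G-CSF receptor gene Csf3r had 20.6 and 17.6 TPM in DBA2J AM, against 58.4 and 59.1 TPM in C57BL6J AM (-1.57 ± 0.24). The interferon receptor gene Ifnar2 had 14.6 and 12.9 TPM in DBA2J AM, against 21.8 and 21.9 TPM in C57BL6J AM (-0.64), while it was higher in DBA2J in IM (0.74), iMo (0.75) and pMo (0.61), all called. Of 29 interferon-stimulated genes, 2 rose and none fell, beside 3.27% higher over all tested genes, with a list median of 0.44.

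Of the genes of MHC class II presentation some were called lower in DBA2J AM, while none was called lower in DBA2J in another type. Of the 13 tested, 4 fell and 1 rose, all 4 falls being alveolar-specific, and the list median was -0.56. Over all tested genes 1.77% were lower, 3.27% higher and 0.461% alveolar-specific and lower. H2-DMb1, which codes for a chain of the peptide-loading chaperone H2-DM, had 20.53 and 16.9 TPM in DBA2J AM, against 96.7 and 101 TPM in C57BL6J AM (-2.35 ± 0.13, adjusted p = 1.85e-06). In IM it had 206 and 200 TPM in DBA2J, against 195 and 180 TPM in C57BL6J. The invariant chain gene Cd74 had 138 and 152 TPM in DBA2J AM, against 692 and 433 TPM in C57BL6J AM (-1.91 ± 0.25). The class II chain genes H2-Ab1 and H2-Aa fell by 1.78 and 1.67 on the log2 scale. H2-Eb1 (-1.14, adjusted p = 0.073), H2-DMa (-0.42, adjusted p = 0.21) and the master regulator gene Ciita (-0.56, adjusted p = 0.25) were not called. H2-Ea-ps, the E alpha gene that is deleted at its promoter in the b haplotype, was higher in DBA2J in all 4 types, at 63.1 and 49.9 TPM in DBA2J AM, against 0 and 0.806 TPM in C57BL6J AM (5.41). AM levels of class II genes were low beside the other types: Cd74 averaged 145 TPM in DBA2J AM and 562 TPM in C57BL6J AM, against group means of 2874 to 7240 TPM elsewhere, while 10 listed dendritic cell markers summed to 59.9 and 56.9 TPM in DBA2J AM, against 33.8 and 27.2 TPM in C57BL6J AM.

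All called genes of the cytokine and chemokine list were higher in DBA2J AM. Of 27 tested cytokine, chemokine and NF-κB response genes, 5 rose and none fell, with a list median of 0.55. Over all tested genes 3.27% were higher and 1.77% lower. Csf1, which codes for the macrophage growth factor M-CSF, had 8.33 and 6.43 TPM in DBA2J AM, against 0.946 and 0.503 TPM in C57BL6J AM (2.28 ± 0.37). Ccl9 had 73.9 and 68.1 TPM in DBA2J AM, against 26.8 and 21.2 TPM in C57BL6J AM (1.53 ± 0.21). Ccl3 had 153 and 111 TPM in DBA2J AM, against 32.9 and 29.3 TPM in C57BL6J AM (2.04), and was lower in DBA2J pMo (-2.21). The monocyte chemokine gene Ccl2 (2.41) and Cxcl16 (1.36) were called as well. Csf1, Ccl9, Ccl2 and Cxcl16 had higher means in IM of the same strain than in AM, while the Ccl3 libraries of DBA2J AM and IM overlapped. Ccl2 averaged 10.5 TPM in DBA2J AM and 66.0 TPM in DBA2J IM, and Csf1 7.38 TPM in DBA2J AM and 79.7 TPM in DBA2J IM. Of 16 complement genes, 5 rose and 1 fell, beside the same shares over all tested genes. C3 (1.23), C1qb (2.23), C2 (1.96), C3ar1 (1.92) and Cfb (1.53) rose. C1qb stood at 7.37 and 6.07 TPM in DBA2J AM, against 1.02 and 0.326 TPM in C57BL6J AM and 812 TPM in DBA2J IM. The 20 listed interstitial macrophage markers summed to 1562 and 1405 TPM in DBA2J AM, against 1351 and 1160 TPM in C57BL6J AM, with 4 called higher (C1qb, C3ar1, Stab1 and Cx3cr1) and 1 lower (Mertk). Apoe, Cd14, Csf1r and Mertk made up most of that sum, and the list median was 0.86, beside 0.08 over all tested genes. Stab1 had 5.46 and 8.19 TPM in DBA2J AM, against 0.932 and 1.62 TPM in C57BL6J AM, and the part of interstitial RNA in the mediator genes was not tested.

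Several matricellular genes were higher in DBA2J AM beside Nov. Of 9 tested, 5 rose, Nov among them, and 1 fell, beside 3.27% higher and 1.77% lower over all tested genes, with a median of 1.83. Spp1, the osteopontin gene, had 2943 and 3153 TPM in DBA2J AM, against 455 and 451 TPM in C57BL6J AM (2.75 ± 0.29, adjusted p = 0.00023). Its IM levels were 173 and 262 TPM in DBA2J, against 224 and 230 TPM in C57BL6J, and in pMo it was lower in DBA2J (-1.45). Sparc (2.54) and the thrombospondin gene Thbs1 (1.78) rose at levels of 12.9 TPM or less. Tgfbi, a TGF-β-induced matrix gene, fell to 120 and 152 TPM in DBA2J AM, against 459 and 424 TPM in C57BL6J AM (-1.70 ± 0.13), and was lower in DBA2J IM too (-0.47). In the whey acidic protein and antiprotease list, 3 rose and 2 fell of 15 tested, beside the same shares over all tested genes. Wfdc17 had 293 and 277 TPM in DBA2J AM, against 29.8 and 21.2 TPM in C57BL6J AM (3.45 ± 0.41), the opposite of its relative Wfdc21. Wfdc10 had 22.9 and 1.73 TPM in DBA2J AM, against 52.2 and 63.0 TPM in C57BL6J AM (-2.85, adjusted p = 0.049), so the DBA2J replicates disagreed.

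Beside Mcoln3, which fell, all other called ion channel genes rose in DBA2J AM. Of 24 tested channel genes, 4 rose and 1 fell, beside 3.27% higher and 1.77% lower over all tested genes. The related mucolipin genes Mcoln1 (150 and 146 TPM in DBA2J AM, against 129 and 139 TPM in C57BL6J AM) and Mcoln2 (5.44 and 6.99 TPM in DBA2J AM, against 5.00 and 4.52 TPM in C57BL6J AM) were not called, with 95% intervals of the difference from -0.10 to 0.40 and from -0.22 to 0.85. The endolysosomal channel genes Tpcn2 and Tpcn1 rose by 1.22 and 1.13 in AM and were lower in DBA2J IM, by -0.99 and -1.0. The ATP-gated channel genes P2rx4 and P2rx7 rose by 0.86 and 0.63. Among lysosomal genes, the protease gene Ctsb rose (0.44) while it was lower in DBA2J IM, and Gpnmb, which carries a known DBA2J mutation, fell to 94.6 and 40.5 TPM in DBA2J AM, against 297 and 279 TPM in C57BL6J AM. The Gpnmb difference was -2.2 in AM and -4.84 in IM, both called.

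Lipid genes, which surfactant handling in these cells depends on, were called in both directions. Of 33 tested genes of lipid uptake, storage and catabolism, Msr1 rose and Dgat2, Acsl3 and Acadl fell, beside 3.27% and 1.77% of all tested genes, with a median of -0.07. Dgat2, the last enzyme of triglyceride synthesis, had 13.3 and 12.7 TPM in DBA2J AM, against 39.1 and 46.7 TPM in C57BL6J AM (-1.64 ± 0.26). Outside the list, the lipase family gene Pnpla5 had 0.671 and 1.09 TPM in DBA2J AM, against 85.5 TPM in both C57BL6J AM libraries (-5.53 ± 0.58), and was lower in DBA2J IM too (-3.28). G0s2, an inhibitor of the triglyceride lipase ATGL, had 10.8 and 7.80 TPM in DBA2J AM, against 112 and 140 TPM in C57BL6J AM (-3.63 ± 0.88, adjusted p = 0.041). Of 16 cholesterol efflux and LXR genes, the sterol hydroxylase gene Cyp27a1 rose (0.88) and the LXRα gene Nr1h3 fell (-1.33); Rxra, the gene of its partner receptor, fell as well (-0.96). Of 30 oxidative phosphorylation genes none was called, of 24 cell cycle genes 1 fell, with a list median of -0.64, and of 23 cholesterol synthesis genes 1 fell, with a list median of -0.24; over all tested genes 5.05% were called. Of the 27 alveolar macrophage markers, the chitinase-like gene Chil3 fell to 1120 and 1099 TPM in DBA2J AM, against 3963 and 3796 TPM in C57BL6J AM (-1.81), and it was lower in DBA2J IM and iMo too; Cdh1 also fell. Car4 (-1.18, adjusted p = 0.23) and Fabp1 (1.14, adjusted p = 0.17) were not called.

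**Figure D4:**
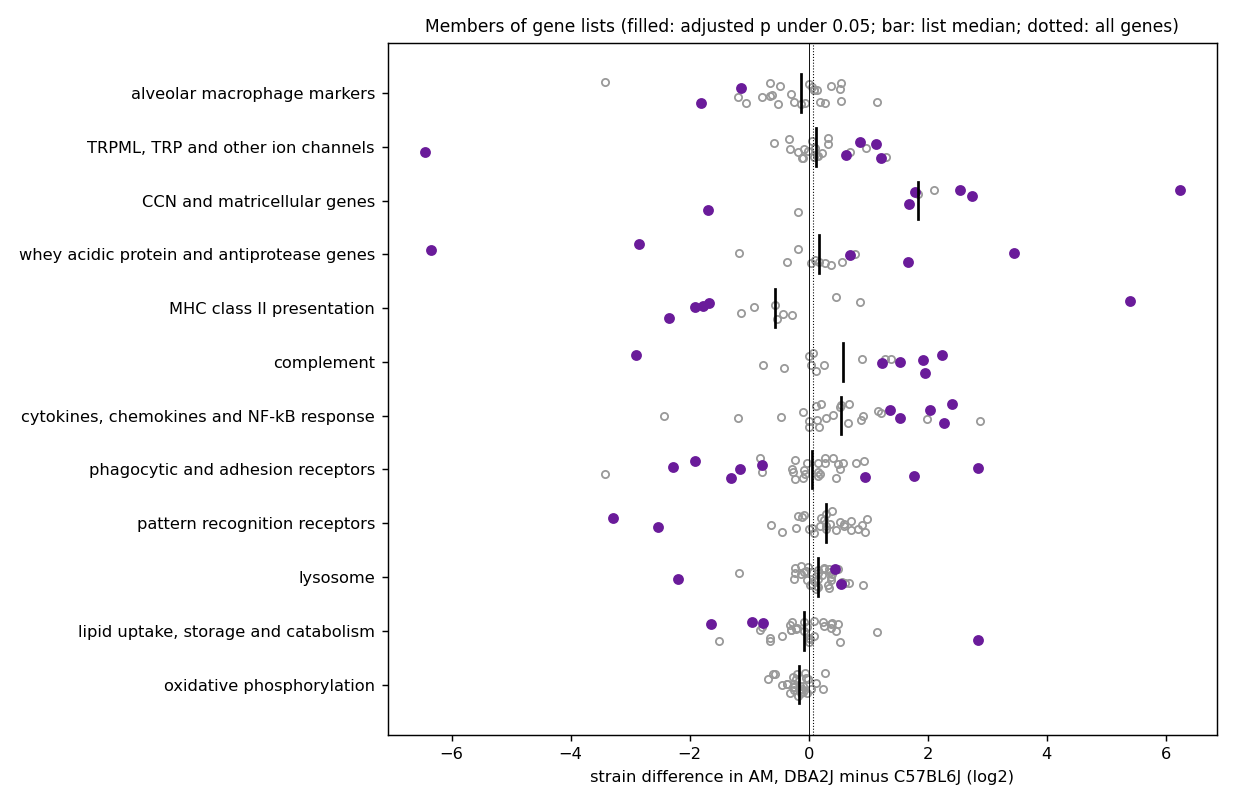
Each point is the AM strain difference, log2 DBA2J minus C57BL6J, of 1 member of the gene list named on the left, filled where the adjusted p was under 0.05; bars are list medians and the dotted line is the median of all tested genes, 0.08. The class II list has 4 filled points between -2.35 and -1.67 and 1 at 5.41, the matricellular list lies mostly to the right with a median of 1.83, and the oxidative phosphorylation list has no filled point.

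Some of the largest AM differences were not particular to these cells. Zfp791 had 468 and 405 TPM in DBA2J AM, against 2.62 and 2.20 TPM in C57BL6J AM (7.0 ± 0.31), and was called in the same direction in IM (2.19), iMo (6.64) and pMo (6.97). Pianp, the gene of a ligand of the inhibitory receptor PILRα, was higher by 6.75 in AM, 5.08 in iMo and 4.94 in pMo. The class I genes H2-Q1 and H2-Q2 were higher in DBA2J in all 4 types, by 5.85 and 5.79 in AM, while H2-Q10 was higher in AM (6.84), iMo and pMo and not called in IM (-1.86). H2-Q genes and the Zfp791 and Rpl29 entries have near-identical copies, so reads may be split among them and these values are uncertain; Rpl29 was lower in DBA2J in all 4 types (-5.07 in AM). Trim12a had 0 and 0.220 TPM in DBA2J AM, against 26.0 and 28.2 TPM in C57BL6J AM, and Trim30d, a neighbour in the same TRIM cluster, fell by 3.0 on the log2 scale. Gsr, the glutathione reductase gene, had 16.2 and 19.5 TPM in DBA2J AM, against 107 and 96.2 TPM in C57BL6J AM (-2.44 ± 0.20), with falls of 2.64 to 3.03 on the log2 scale in the other types. Glo1, the glyoxalase gene known to be duplicated in DBA2J, rose by 1.12 in AM, and Cntnap5b by 4.77 in AM, without a call in IM.

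ATAC peaks of AM were set beside these genes as a description, since each strain has 1 list. The DBA2J AM list held 43690 peaks, of which 14753 overlapped no C57BL6J AM peak, and the C57BL6J AM list held 32668, of which 3725 overlapped no DBA2J AM peak. Within 1000 bp of the start, a DBA2J-only peak lay at 24.9% of the genes called higher in DBA2J and at 15.9% of all tested genes. A C57BL6J-only peak lay at 17.9% of the genes called lower in DBA2J, 21.9% of the alveolar-specific lower ones and 6.48% of all tested genes. Within 100 kb, 89.9% of the higher genes had a DBA2J-only peak, beside 86.0% of all genes, and 78.9% of the lower genes had a C57BL6J-only peak, beside 48.6% of all genes. At Clmn all 12 C57BL6J AM peaks within 100 kb were found in C57BL6J only, and the DBA2J list held 1 peak there, found in DBA2J only. At Pmepa1 the DBA2J list held 1 peak and the C57BL6J list 10, of which 9 were in C57BL6J only. At Gprc5b the DBA2J list held 12 peaks, 10 of them in DBA2J only, and the C57BL6J list 2. At Sgsh the DBA2J list held 13 peaks, 8 of them in DBA2J only, and the C57BL6J list 7, 2 of them in C57BL6J only. At the Sgsh start the DBA2J list held 2 peaks, 1 of them in DBA2J only. The C57BL6J list held 1 peak there, while the C57BL6J RNA was near silent.

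**Figure D5:**
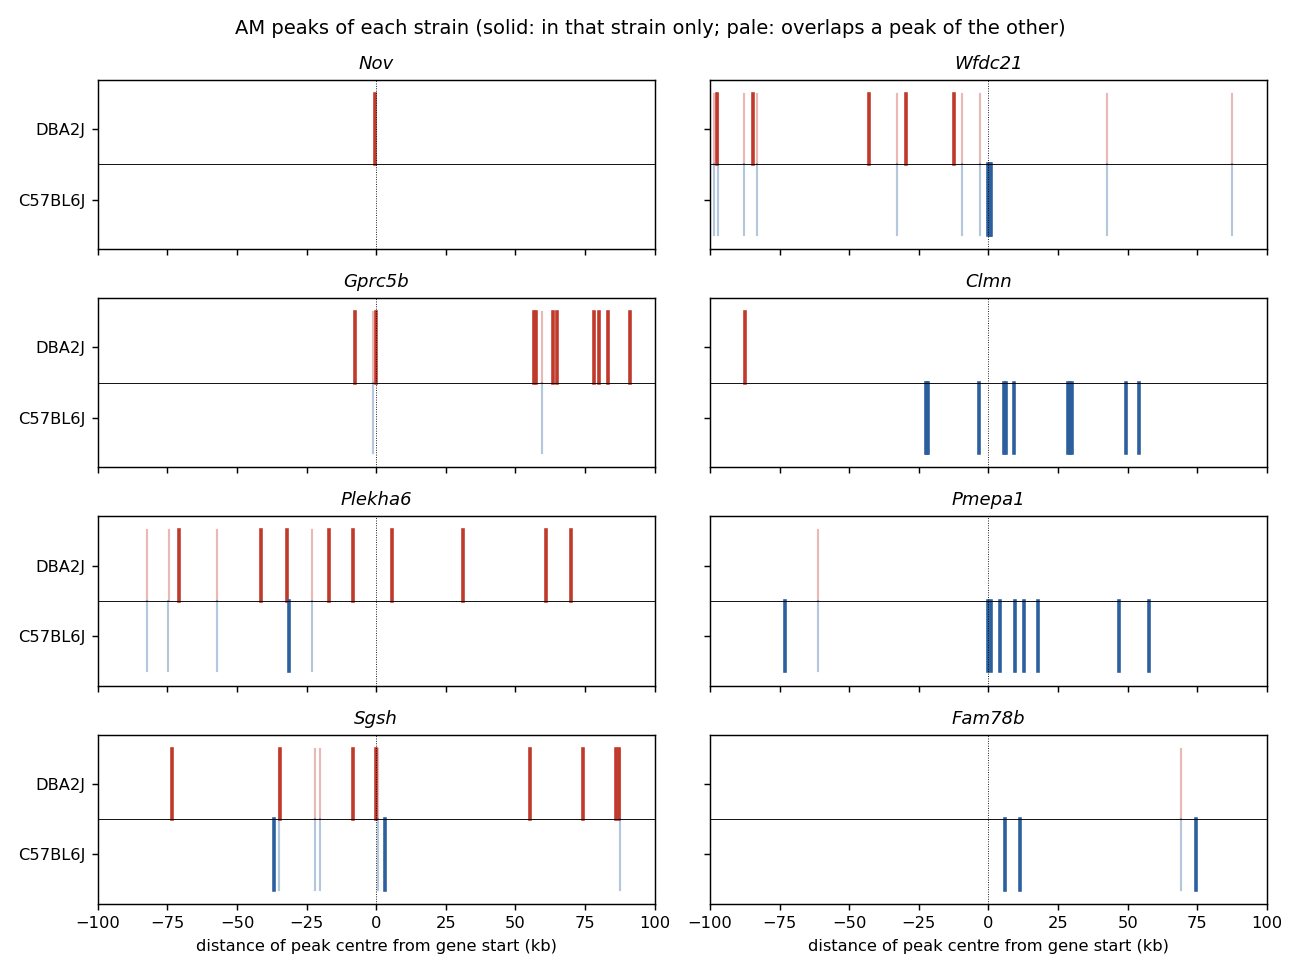
Each vertical line is 1 AM peak, placed by the distance of its centre from the gene start in kb (100 kb to each side), DBA2J above and C57BL6J below the midline; solid lines overlap no peak of the other strain. Clmn and Pmepa1 have solid C57BL6J peaks on both sides of the start and 1 DBA2J peak each, Gprc5b and Plekha6 have mostly solid DBA2J peaks, and Nov has 1 DBA2J peak, at its start.

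5 of the genes called in AM with a start peak in the higher strain and none in the other are shown with their reference promoters, 250 bases before to 50 bases after the start on the gene's strand (RefSeq, GRCm38.p6, the C57BL6J reference and not the DBA2J allele). Of 17 named genes with this peak pattern, 11 had a RefSeq window; Nov, Wfdc21, Dgat2, Pmepa1, P2rx7 and Hist1h4j had none at the start used. H2-Aa and Wfdc10, both called lower in DBA2J AM, had the reverse pattern, with a start peak in the DBA2J AM list only. Capitals mark letters of 4 motifs searched on both strands: AP-1 (TGANTCA), PU.1 (GAGGAAGT), C/EBP (TTGCNNAA) and the E-box (CACGTG), which occur in 7.81%, 3.20%, 10.8% and 7.15% of the 32851 RefSeq windows. Gprc5b (chr7:118995162-118995461, minus strand) and Wfdc17 (chr11:83703806-83704105, plus strand) had DBA2J-only peaks and hold none of the 4. Of the 11 windows, 4 hold any of these motifs, and the 5 shown were chosen after their values were seen.
Gprc5b: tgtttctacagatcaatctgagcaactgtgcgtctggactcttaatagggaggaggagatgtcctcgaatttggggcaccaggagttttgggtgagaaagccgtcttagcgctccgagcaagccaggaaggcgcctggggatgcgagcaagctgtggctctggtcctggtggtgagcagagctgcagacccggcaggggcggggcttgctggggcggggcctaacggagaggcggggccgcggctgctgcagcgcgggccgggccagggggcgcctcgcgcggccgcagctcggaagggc
Wfdc17: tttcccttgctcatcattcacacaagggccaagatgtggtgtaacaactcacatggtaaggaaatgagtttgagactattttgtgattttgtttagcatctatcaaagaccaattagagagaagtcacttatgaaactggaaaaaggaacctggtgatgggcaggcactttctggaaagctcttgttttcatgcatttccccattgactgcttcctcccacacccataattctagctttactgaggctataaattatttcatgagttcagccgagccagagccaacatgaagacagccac
Adgrg1 (chr8:94984149-94984448, plus strand), H2-DMb1 (chr17:34152941-34153240, plus strand) and Nlrp1b (chr11:71230684-71230983, minus strand) had C57BL6J-only peaks. Adgrg1 holds 2 AP-1 matches, H2-DMb1 holds 1, and Nlrp1b holds 1 PU.1 and 1 C/EBP match. Nlrp1b had 1.62 and 2.09 TPM in DBA2J AM, against 24.2 and 29.4 TPM in C57BL6J AM (-3.28), and was lower in DBA2J in all 4 types.
Adgrg1: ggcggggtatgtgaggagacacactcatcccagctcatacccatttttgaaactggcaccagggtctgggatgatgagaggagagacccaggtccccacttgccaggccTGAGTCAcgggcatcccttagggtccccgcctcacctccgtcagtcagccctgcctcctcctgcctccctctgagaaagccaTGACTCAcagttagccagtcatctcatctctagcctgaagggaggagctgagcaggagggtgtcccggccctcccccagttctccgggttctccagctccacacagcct
H2-DMb1: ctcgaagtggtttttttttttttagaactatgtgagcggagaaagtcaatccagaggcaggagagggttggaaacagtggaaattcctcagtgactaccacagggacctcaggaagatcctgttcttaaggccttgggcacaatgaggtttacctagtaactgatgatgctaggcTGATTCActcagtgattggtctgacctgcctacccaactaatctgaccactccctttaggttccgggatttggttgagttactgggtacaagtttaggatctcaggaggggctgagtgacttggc
Nlrp1b: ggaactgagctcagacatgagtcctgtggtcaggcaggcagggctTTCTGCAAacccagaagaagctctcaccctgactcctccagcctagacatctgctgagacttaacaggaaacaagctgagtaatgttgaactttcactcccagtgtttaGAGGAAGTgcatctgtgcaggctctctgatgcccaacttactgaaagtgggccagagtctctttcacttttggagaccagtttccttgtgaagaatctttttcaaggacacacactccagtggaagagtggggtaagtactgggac
A match is a run of letters and no measured binding.

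Among the genes named above, the call in AM was lost when 1 AM library was left out for Wfdc10, Sparc, Thbs1, Ccl2, Ccl3, Cxcl16, C1qb, C2, C3ar1, Cfb, Tpcn1, P2rx7, Ctsb, Gpnmb, G0s2, Nr1h3, Rxra, Acsl3, Acadl, Ifnar2, Epcam, Cdh1, Cldn1, Rpl29, Hist1h4j, Amer2, Glo1, Pecam1, Cx3cr1, Aplnr, Cavin1, Cavin2, Eng, Stab1 and Mertk, each in at least 1 of the 4 cases. It held in all 4 cases for the others with a call, predicted genes not tried, among them Nov, Mcoln3, Wfdc21, Sgsh, Slc26a11, Gprc5b, Plekha6, Bcam, Fam78b, Pmepa1, Clmn, Cd22, Fcgr2b, H2-DMb1, Spp1, Wfdc17 and Msr1. Thbs1, Cxcl16, Cfb, Ctsb, G0s2 and Cavin2 also lost the call with median-of-ratios scaling, and Wfdc10, Sparc, Thbs1, Cxcl16, Tpcn1, Ctsb, G0s2, Cx3cr1 and Cavin2 with quantile normalization. On TPM as deposited Cyp27a1 lost it as well, although it held without each AM library.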

How the data were processed

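The RNA table holds TPM made by the authors for 24940 genes in 16 libraries. The deposited AM peak lists, 1 per strain, give each peak a score made by the authors; it was used only to keep the better-scored part as an alternative. The submitters' processing notes name STAR, Bowtie, HOMER and mm10 without roles or versions. Gene length in the deposited table is end minus start, introns included, for 99.24% of genes. TPM times length gave whole multiples of 1 constant per library, within 0.1, for 100% of the 4471 to 6008 values checked per library, and these are the reads quoted as depth.

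Rn45s and Mir6236 were removed, libraries were rescaled, and the 13873 genes averaging 1 TPM or more were fitted as log2(TPM + 1) using limma (3.58.1, R 4.3.3) with a variance trend. The 8 groups shared 1 spread. The pseudocount of 1 understates folds of low genes. Tables and figures used Python 3.11.15, numpy 2.4.6, pandas 2.3.3 and matplotlib 3.10.9. In simulated data with 200 of 13873 genes changed, the AM test recovered 78% of log2 changes of 2 and 19% of those of 1, with 6 false calls. The test against the other types recovered 70% and 13%, with 5 false calls. The simulated noise was normal, with each gene's fitted spread equal in all 8 groups, and there was no other strain difference. The spread of the real replicates differed between groups, so these rates may not hold for the data. Peaks of the strains were shared at 1 bp of overlap.

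Members, lists and tests were chosen with earlier results of these data known. The naming rule took, per direction, the 12 largest called differences with 10 TPM or more in the higher strain and no overlap, and the 10 largest alveolar-specific ones, without predicted genes; Nov, Mcoln3 and Wfdc21; up to 4 called members per list; and the known-variant and sort panel lists. Other list members are named to complete a list's account, and 1 gene that the rule took is not reported here. Alternatives varied scaling, filter, pseudocount, trend, libraries and the replicate block. ATAC peaks of the other types were used only at Nov.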

Additional observations from a re-analysis of the deposited data

Results flagged for a closer look

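For 75 of the genes named above the strain difference in AM departed from the mean strain difference of IM, iMo and pMo, by a test of that departure itself (limma, adjusted p under 0.05 over all 13873 tested genes). The values given are the departures on the log2 scale, the difference of DBA2J minus C57BL6J in AM minus its mean in the other 3 types, and 3.67% of all tested genes passed this test. Being against a mean, it does not show a departure from each single type. Among the alveolar-specific genes not called against iMo alone in the same limma fit were C3ar1 (adjusted p = 0.54), Cavin2 (0.38), Ccl2 (0.35) and Thbs1 (0.30). P2rx4 (0.22) and G0s2 (0.23) were among those not called against pMo alone.

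Among alveolar-specific genes higher in DBA2J AM and called the other way elsewhere, the departure was Spp1 3.01, Ccl3 3.12, C2 2.51, Stab1 2.91, Tpcn1 1.51, Tpcn2 1.60, Slc26a11 4.65, Ctsb 0.69 and Anpep 3.51. Among those lower in DBA2J AM and called the other way elsewhere it was Cd22 -7.54, Ifnar2 -1.33 and Pmepa1 -5.37. Where no difference was called in the other types, genes higher in DBA2J AM departed by Wfdc17 4.01, Thbs1 2.35, Csf1 2.48, Ccl2 2.55, Ccl9 1.57, Mmp12 2.89, C1qb 3.23, C3ar1 1.79, P2rx4 0.81, Acer3 2.94, Msr1 2.17, Cyp27a1 0.78, Bcam 3.90, Actr3b 3.96, Stum 3.19, Matk 3.44, Reep2 3.12, Ahr 2.08, Aplnr 3.56, Cavin1 2.81, Cavin2 2.92, Eng 2.41, Icam2 1.45, S1pr1 2.06 and Heg1 1.88. Genes of that kind lower in DBA2J AM departed by G0s2 -4.54, Dgat2 -1.77, Fcgr2b -2.10, Adgrg1 -2.93, Csf3r -2.01, H2-DMb1 -2.39, Cd74 -2.05, H2-Ab1 -1.81, H2-Aa -1.84, Cldn1 -3.82, Fam78b -4.07, Hist1h4j -4.30 and Amer2 -3.38, and genes with no other group at 1 TPM by Ear6 -4.59 and Ear7 -4.84.

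The remaining genes were called in the same direction in at least 1 other type. Their test too is against the mean of the 3 types, and the AM difference need not exceed that of each type. Tested against IM alone in the same limma fit, it was not called as different for Nov (adjusted p = 0.58), Gal (0.39), Spint1 (0.27), Pnpla5 (0.15), Siglec1 (0.15) and Spag11b (0.093). Against iMo and pMo it was not called for Zfp791 (0.91 and 0.98), H2-Q10 (0.995 and 0.64), Cntnap5b (0.18 and 0.70) and Pianp (0.53 and 0.36). Against pMo it was not called for Nlrp1b (0.12). Those higher in DBA2J AM departed by Nov 3.55, Slc22a4 3.53, Sgsh 4.52, Card14 3.35, Gprc5b 4.70, Plekha6 5.00, Zfp791 1.74, Pianp 2.83, H2-Q10 3.25 and Cntnap5b 2.37. Those lower in DBA2J AM departed by Mcoln3 -5.11, Wfdc21 -5.86, Gal -4.01, Spag11b -4.37, Tgfbi -1.48, Pnpla5 -4.46, Siglec1 -1.56, Tlr5 -2.51, Clmn -4.11, Spint1 -3.26 and Nlrp1b -1.68. For H2-Ea-ps -3.93 and Trim12a 1.63 the difference had the same sign in all 4 types and was smaller in AM than the mean of the others. Against IM, iMo and pMo alone, Trim12a was not called in the same limma fit (adjusted p = 0.055, 0.17 and 0.13). Every DBA2J library had 0.530 TPM of Trim12a or less. Its C57BL6J mean was 27.1 TPM in AM, against 73.8 to 98.6 TPM in the other types. The departure of C1qb, C2, C3ar1, Csf1, Ccl2 and Thbs1 rests on AM levels of 11.3 TPM or less, and that of Ear6, Ear7 and Hist1h4j on 24 reads or fewer in each AM library. No explanation of these departures was tested.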

How the results depend on the processing

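No called difference of a named gene changed sign under the alternatives tried; differences that were not called did in some cases. For the AM difference of named genes, 3005 of the repeated results kept their side of the threshold, 343 lost a call and 13 gained one; for the departure from the other types the numbers were 2975, 217 and 53. The 700 AM calls became 403 on TPM as deposited, with the ribosomal entries left in, and 453 with the 4 AM libraries alone. The 239 alveolar-specific genes became 133 on TPM as deposited. Alternatives chosen after seeing the data were voom on the recovered reads, which gave 1255 AM calls (624 of the 700 among them) and 399 alveolar-specific genes, and leaving out the 4 IM libraries, which gave 386 alveolar-specific genes. Leaving out each of the 16 libraries in turn gave 358 to 824 AM calls, 256 to 662 genes for the departure from the other types and 125 to 350 alveolar-specific genes; where an AM group was left with 1 library, that library was assumed to vary like the other groups. The share of higher genes with a DBA2J-only peak became 78.4% with the better-scored part of each list and 65.4% within 20 kb. The share of lower genes with a C57BL6J-only peak became 52.9% and 49.6%. These shares are not set beside those of all tested genes, so they do not show whether called genes differ from the rest. The 20 kb window lies inside the 100 kb window, so its shares cannot be higher. The cause of the move with the better-scored part was not tested. Other scalings, filters, pseudocounts, a 2-fold minimum, leaving out both C57BL6J IM libraries and the fit without a trend kept the 3 counts within 1.5 times.

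With the replicate number as a block, the counts were 715 AM calls, 556 for the departure and 264 alveolar-specific genes, all within 1.5 times; of the named genes Wfdc10, Cxcl16, Acsl3 and Cdh1 lost the AM call and H2-Eb1 gained it. The numbers are not shown to pair the libraries (residual correlation of the AM pair 0.01). Depth limits genes of few reads: 31 of the 700 and 16 of the 239 had under 40 reads over the 4 AM libraries.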
